A study of Drosophila melanogaster with 10 samples.

Results

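The PDGF/VEGF receptor Pvr, its 3 ligands Pvf1, Pvf2 and Pvf3, the EGF receptor Egfr and 5 genes of the Ras/MAPK cascade beneath them (Dsor1, rl, pnt, aop and sty) were followed in the adult thorax of Drosophila. These 10 genes were taken by symbol from the 17562 genes in the files, and each symbol named 1 gene. Pvr and Egfr are receptor tyrosine kinases of the cell surface. On binding a ligand they activate Ras, which drives a kinase cascade of Raf, the MAPK kinase Dsor1 (MEK) and the MAPK rolled (rl, ERK). The MAPK in turn acts on 2 transcription factors of the ETS family, the activator pointed (pnt) and the repressor anterior open (aop, also called Yan). Sprouty (sty) is an intracellular inhibitor of this signalling whose gene is itself switched on by it, so that it forms a negative feedback.

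Thoraces of adult males were profiled in Esg>yki flies, which carry the drivers and reporter esg-Gal4, tub-Gal80ts and UAS-GFP with UAS-yki-act, and in control flies, which carry the same esg-Gal4, tub-Gal80ts and UAS-GFP over a wild-type chromosome. esg-Gal4 acts in the progenitor cells of the gut, so that active Yorkie, the growth-promoting coactivator of the Hippo pathway, gives rise to gut tumors, while the thorax was measured as a distant tissue. Gal80ts blocks Gal4 at 18 °C and releases it at 29 °C. Esg>yki thoraces were taken at days 2, 8 and 14 at 29 °C, and at days 20, 26, 32 and 38 after a return to 18 °C at day 14, which silences the transgene. Control thoraces were taken at days 2 and 14 at 29 °C and at day 38 after the same return to 18 °C. Each of the 10 conditions is 1 library from 8 to 10 pooled thoraces. A difference between conditions thus has no replicate check, day and temperature change together after day 14, and no p-value was computed.

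Levels are given as RPKM, reads divided by exon length and by the library's total of reads on genes, so that genes can be compared with each other. Ratios are given on the log2 scale with 95% exact intervals that cover counting error only and not the spread between flies or library preparations. A gene was counted as past 2-fold when its log2 ratio exceeded 1 in either direction and it had at least 2 RPKM in the larger library. "Rose" and "fell" are used only of such genes.

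Libraries held between 14615109 and 38208954 reads on genes. The Esg>yki library of day 14 stood apart, with 46.9% of its reads on mitochondrial genes, against 24.3 to 32.5% in the other 9 libraries. Its median log2 ratio over all genes was -0.36 against the control library of day 14, against -0.02 after scaling by TMM and 0.08 when nuclear protein-coding genes alone set the total. Flight muscle markers marked the tissue in every library, with summed levels of 1402 to 5478 RPKM in Esg>yki and 2886 to 6410 RPKM in control. The transgene is driven in the gut and was not checked by thoracic yki, which had 3.60 to 9.83 RPKM in Esg>yki and 4.10 to 8.85 RPKM in control. In whole thoraces, fewer cells of a type cannot be told apart from less RNA per cell.

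The 10 genes lie apart from each other in the genome, apart from the neighbours Pvf2 and Pvf3. On the Release 6 assembly (dm6) Pvf2 spans 2L:7069536-7084635 and Pvf3 spans 2L:7098188-7157695, both on the minus strand. Pvf1 spans X:18832682-18842901 on the plus strand, Pvr spans 2L:8220980-8239878 on the minus strand and Egfr spans 2R:21522420-21559977 on the plus strand. Dsor1 spans X:9247342-9250037 and rl spans 2R:1071462-1125927, both on the plus strand. Among the minus-strand genes, pnt spans 3R:23290231-23346167, aop spans 2L:2156484-2178754 and sty spans 3L:3401153-3424935. All 10 are protein-coding, and values refer to whole genes, since the files do not separate the 13 annotated transcripts of Pvr or the 7 of rl. Exons of 8 of the 10 genes overlap no other gene. Pvf2 shares 11 exonic bases with Ugt307A1 on the opposite strand, and aop shares 307, or 5.63% of its exonic bases, with CG15382, which held at most 51 reads in any library.

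All 10 genes were detected in every library, with at least 62 reads. At day 14 the order of levels in Esg>yki thoraces was sty, Pvr, rl, Egfr, Pvf1, aop, Dsor1, pnt, Pvf2 and Pvf3. The counting intervals of neighbours in this order overlapped for Pvr and rl, for Pvf1, aop and Dsor1, and for Pvf2 and Pvf3. In control thoraces of day 2 Egfr was the highest, followed by Pvr, Dsor1, rl, sty, Pvf1, aop, Pvf3, pnt and Pvf2, and in both genotypes Egfr was again the highest at day 38. Thus sty ranked first at day 14 in Esg>yki thoraces, against rank 3 in control thoraces of day 14, where its interval overlapped that of rl at rank 2. At day 2 it had rank 5 in both genotypes.

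**Figure D1:**
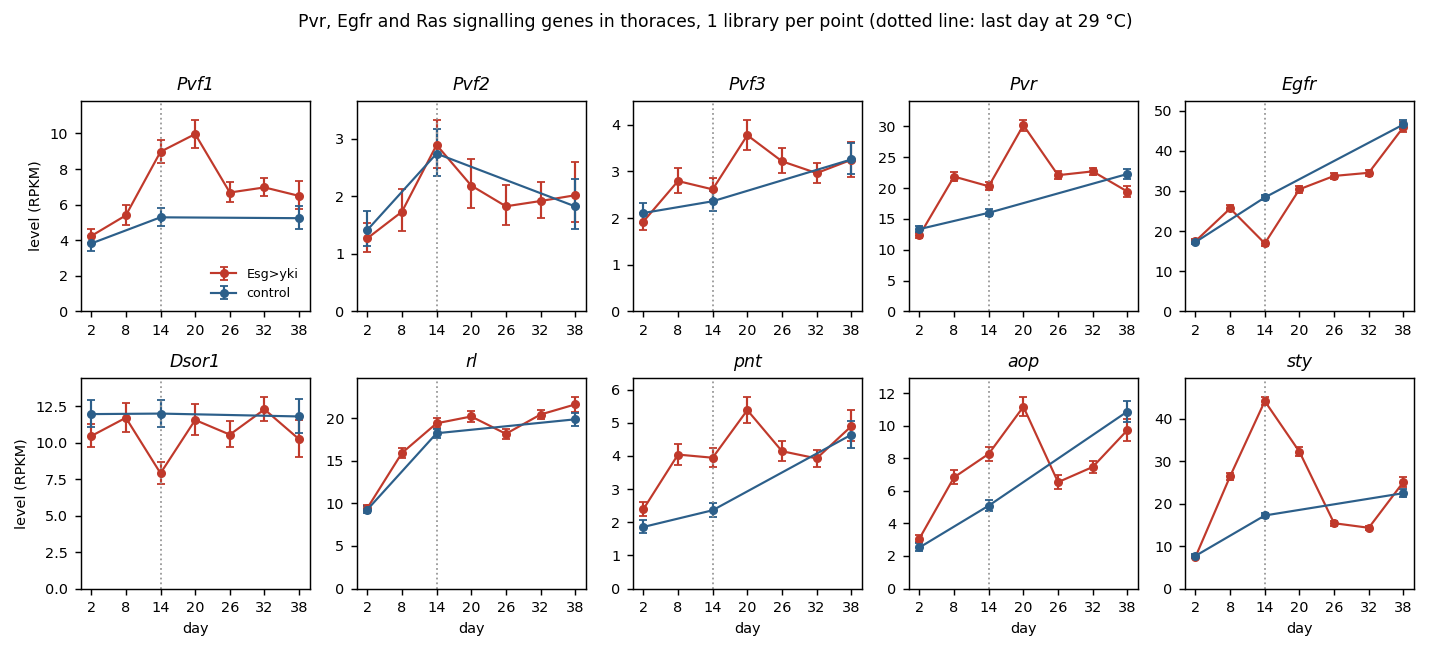
Level in RPKM (y axes, each from 0) of the 10 genes against day (x axis) in Esg>yki (red) and control (blue) thoraces. Each point is 1 library, bars are 95% counting intervals, and the dotted line marks day 14, the last day at 29 °C. The largest gap was that of sty, which stood at 44.2 RPKM in Esg>yki and 17.2 RPKM in control thoraces at day 14.

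The feedback inhibitor sty was the member that differed most between genotypes at day 14 and over time in Esg>yki thoraces. In Esg>yki thoraces it had 7.45, 26.5, 44.2, 32.2, 15.4, 14.3 and 25.1 RPKM at days 2, 8, 14, 20, 26, 32 and 38. In control thoraces it had 7.70, 17.2 and 22.5 RPKM at days 2, 14 and 38. The genotypes thus began and ended close together, and Esg>yki climbed above every control library by day 8, stayed above them at day 20 and stood below the day 14 control at days 26 and 32. At day 14 sty was 2.56-fold higher in Esg>yki thoraces (log2 ratio 1.36, 95% interval 1.30 to 1.42, 7585 against 2908 reads), which placed it at percentile 98.4 of the genes tested. At day 2 the log2 ratio was -0.05 (-0.16 to 0.06), or 0.04 on nuclear protein-coding scaling, and at day 38 it was 0.16 (0.07 to 0.25).

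Over the 29 °C phase sty rose in both genotypes, 5.92-fold between day 2 and day 14 in Esg>yki (log2 ratio 2.57) and 2.24-fold in control (log2 ratio 1.16, or 0.81 on TMM scaling). The Esg>yki change exceeded the control change by 1.41 on the log2 scale (1.28 to 1.53). Between days 20 and 26 sty fell by 1.07 on the log2 scale in Esg>yki thoraces, a step that was short of 2-fold on TMM scaling (-0.96). Between days 8 and 14 its log2 ratio was 0.74, or 1.12 on TMM scaling. Between day 14 and day 38 its log2 ratio was -0.81 in Esg>yki and 0.38 in control. Between days 32 and 38 its log2 ratio in Esg>yki was 0.81 (0.73 to 0.89). Pvf2, the other member with its highest Esg>yki level at day 14, is described with the ligands.

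Among the ligands, Pvf1 differed most between genotypes. Pvf1 had 4.24, 5.40, 8.97, 9.97, 6.68, 6.97 and 6.49 RPKM in Esg>yki thoraces at days 2, 8, 14, 20, 26, 32 and 38, against 3.82, 5.29 and 5.24 RPKM in control thoraces at days 2, 14 and 38. By library total all 6 Esg>yki libraries from day 8 on had higher RPKM than all 3 control libraries, day 8 within counting error of the control at day 14. On TMM and median of ratios scaling day 8 was the lowest Esg>yki day. At day 14 the ratio was 1.70-fold (log2 0.76, 0.60 to 0.93), short of 2-fold, and at day 38 it was 1.24-fold (log2 0.31, 0.06 to 0.56). On TMM scaling the day 14 log2 ratio was 1.11 (0.94 to 1.28), past 2-fold. Between day 2 and day 14 Pvf1 rose in Esg>yki thoraces (log2 ratio 1.08, 0.91 to 1.25), while in control thoraces the log2 ratio was 0.47 (0.26 to 0.68). The change in Esg>yki exceeded that in control by 0.61 on the log2 scale (0.35 to 0.88), or by 0.98 (0.71 to 1.25) on TMM scaling.

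Pvf2 was highest at day 14 in both genotypes. It had 1.27, 1.73, 2.89, 2.19, 1.83, 1.92 and 2.02 RPKM in Esg>yki thoraces at days 2, 8, 14, 20, 26, 32 and 38, against 1.41, 2.74 and 1.82 RPKM in control thoraces at days 2, 14 and 38. With 62 to 192 reads it was the least covered of the 10 genes, and the interval of the genotype ratio included 0 at each of days 2, 14 and 38, but at day 14 the log2 ratio was 0.08 by library total and 0.42 (0.12 to 0.72) on TMM scaling. Pvf2 rose between day 2 and day 14 in Esg>yki (log2 ratio 1.19, 0.83 to 1.55), and the control log2 ratio was 0.96 (0.58 to 1.34). The difference between these changes was 0.23 with an interval of -0.28 to 0.74, and 0.60 (0.09 to 1.11) on TMM scaling.

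Pvf3 moved least of the ligands. It had 1.92, 2.79, 2.61, 3.77, 3.22, 2.96 and 3.25 RPKM in Esg>yki thoraces at days 2, 8, 14, 20, 26, 32 and 38, against 2.11, 2.36 and 3.25 RPKM in control thoraces at days 2, 14 and 38. Its genotype ratio also had an interval that included 0 at each of the 3 shared days, but on TMM scaling the day 14 log2 ratio was 0.49 (0.31 to 0.68), against 0.15 by library total. Its highest level was 1.96-fold above its lowest. Although Pvf2 and Pvf3 are neighbours on the chromosome, their highest Esg>yki levels fell at different days, day 14 for Pvf2 and day 20 for Pvf3. The Pvf3 log2 ratio of day 20 over day 14 was 0.53 (0.35 to 0.71) by library total. On TMM, median of ratios and nuclear protein-coding scaling it was 0.08, 0.09 and 0.11, within counting error, so its peak day was not resolved there.

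Pvr, the receptor of these ligands, had 12.3, 21.9, 20.3, 30.2, 22.1, 22.7 and 19.4 RPKM in Esg>yki thoraces at days 2, 8, 14, 20, 26, 32 and 38, against 13.3, 16.0 and 22.3 RPKM in control thoraces at days 2, 14 and 38. By library total Esg>yki thus lay slightly below control at day 2, above it at day 14 and below it again at day 38. The log2 ratios were -0.12 (-0.19 to -0.04), 0.34 (0.28 to 0.41) and -0.20 (-0.28 to -0.11). On nuclear protein-coding scaling the day 2 log2 ratio was -0.03 (-0.10 to 0.05). The day 14 log2 ratio was 0.69 on TMM and 0.79 on nuclear protein-coding scaling. The day 20 library, which has no control of its day, held the highest level. Between day 2 and day 14 the Pvr change in Esg>yki exceeded that in control by 0.46 on the log2 scale (0.36 to 0.56), or by 0.83 (0.73 to 0.93) on TMM scaling.

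Egfr ran the other way at day 14. It had 17.5, 25.6, 16.9, 30.4, 33.7, 34.5 and 45.9 RPKM in Esg>yki thoraces at days 2, 8, 14, 20, 26, 32 and 38, against 17.3, 28.4 and 46.6 RPKM in control thoraces at days 2, 14 and 38. Control levels climbed across the 3 days, and Esg>yki levels did so except at day 14, where Egfr stood at its lowest of all 10 libraries by library total, TMM and median of ratios. On nuclear protein-coding scaling the log2 ratio of day 14 over day 2 in Esg>yki was 0.37, against -0.05 by library total, and day 14 was not the lowest. The day 14 ratio was 0.597-fold (log2 -0.74, -0.80 to -0.69), short of 2-fold and below the median of all genes of -0.36. On TMM and nuclear protein-coding scaling this log2 ratio was -0.40 and -0.30. At day 38 the log2 ratio was -0.02 (-0.08 to 0.04), or 0.02 on TMM scaling. Egfr was the single member that rose between day 14 and day 38 in Esg>yki (2.71-fold, log2 1.44), against a control log2 ratio of 0.71.

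**Figure D2:**
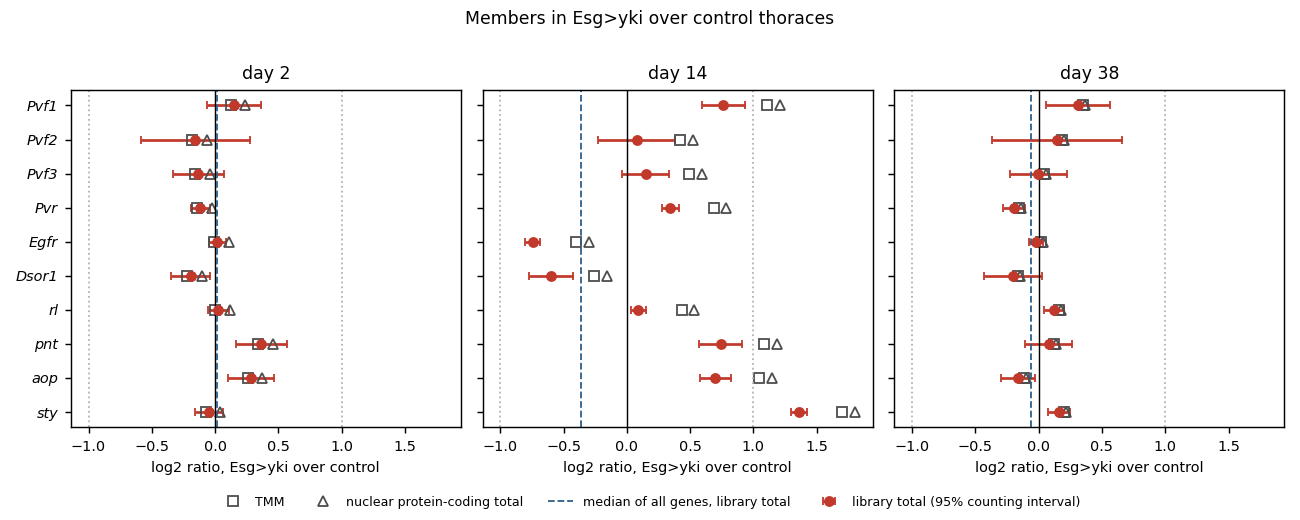
Log2 ratio of Esg>yki over control thoraces (x axis) for each gene (y axis) at days 2, 14 and 38. Red points are the ratios by library total with 95% counting intervals, open squares and triangles are TMM and nuclear protein-coding scaling, the dashed line is the median of all genes and dotted lines are 2-fold. In day 14 values sty lies past 2-fold at day 14 on all scalings shown, while Pvf1, pnt and aop pass it on TMM and nuclear protein-coding scaling only.

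The 2 kinases of the cascade followed different courses. Dsor1, the MEK of the fly, had 10.5, 11.7, 7.90, 11.6, 10.6, 12.3 and 10.2 RPKM in Esg>yki thoraces at days 2, 8, 14, 20, 26, 32 and 38, against 11.96, 11.99 and 11.79 RPKM in control thoraces at days 2, 14 and 38. Across control libraries its highest level was 1.02-fold the lowest by library total, and 1.40-fold on TMM scaling. Its Esg>yki library of day 14 was the lowest by library total and median of ratios, while on TMM and nuclear protein-coding scaling that of day 38 was. At day 14 the log2 ratio to control was -0.60 (-0.78 to -0.43), below the median of all genes. On TMM and nuclear protein-coding scaling it was -0.26 and -0.16.

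The ERK gene rl, on which the receptors converge, had 9.43, 15.9, 19.4, 20.2, 18.2, 20.4 and 21.6 RPKM in Esg>yki thoraces at days 2, 8, 14, 20, 26, 32 and 38, against 9.26, 18.2 and 19.9 RPKM in control thoraces at days 2, 14 and 38. In both genotypes rl was lowest at day 2. Between day 2 and day 14 rl rose in Esg>yki (log2 ratio 1.04, 0.97 to 1.11), and the control log2 ratio of 0.98 (0.90 to 1.05) lay just under the 2-fold mark. The difference between these changes was 0.06 (-0.04 to 0.17) by library total, and 0.43 (0.33 to 0.53) on TMM scaling, with log2 ratios of 1.06 in Esg>yki and 0.62 in control.

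The ETS factors had similar courses over the 10 libraries, but aop changed more than pnt between day 2 and day 14. The repressor aop had 3.07, 6.83, 8.28, 11.2, 6.54, 7.47 and 9.74 RPKM in Esg>yki thoraces at days 2, 8, 14, 20, 26, 32 and 38, against 2.52, 5.09 and 10.9 RPKM in control thoraces at days 2, 14 and 38. The activator pnt had 2.39, 4.04, 3.95, 5.38, 4.14, 3.93 and 4.90 RPKM in Esg>yki thoraces at the same days, against 1.86, 2.36 and 4.64 RPKM in control thoraces. By library total both peaked at day 20 in Esg>yki thoraces and at day 38 in control thoraces. On TMM scaling days 14 and 20 in Esg>yki were within counting error of each other, with log2 ratios of day 20 over day 14 of -0.01 for aop and 0.00 for pnt. Across the 10 libraries they had the highest correlation of any pair of members (Pearson r = 0.95 of log2 levels), a description of libraries that share age, temperature and depth.

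At day 14 the log2 ratio of Esg>yki over control was 0.70 for aop (0.58 to 0.82) and 0.74 for pnt (0.57 to 0.91). Both stood under 2-fold, and both were past it on TMM scaling, with 1.04 for aop and 1.08 for pnt. The repressor gene aop rose between day 2 and day 14 in both genotypes, with a log2 ratio of 1.43 in Esg>yki and 1.01 in control, the second short of 2-fold on TMM scaling (0.66). For pnt these log2 ratios were 0.72 in Esg>yki and 0.35 in control, both short of 2-fold, and on TMM scaling 0.74 and -0.01. On nuclear protein-coding scaling they were 1.14 and 0.41, the first of them past 2-fold. The gene aop rose again between day 14 and day 38 in control (log2 ratio 1.09), against 0.23 in Esg>yki, a value that was -0.18 on TMM scaling. Control aop was short of 2-fold there on TMM scaling. By day 38 the genotype log2 ratios were -0.16 for aop (-0.29 to -0.03) and 0.08 for pnt (-0.11 to 0.26).

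Counted over the 10 genes, 1 was past 2-fold higher in Esg>yki than in control at day 14 and 0 were past it lower, where 2.99% of the 8368 genes tested were higher and 17.0% lower. The median log2 ratio of the 10 was 0.25 against -0.36 over all genes, and 8 of the 10 were above 0, against 27.7% of all genes. That share holds by library total, and on TMM scaling the median of all genes was -0.02. Set against the median of all genes, 8 of the 10 lay above it. With TMM, median of ratios or nuclear protein-coding scaling the count was 4 (sty, Pvf1, pnt and aop). On these scalings 6.29, 5.58 and 8.89% of all genes were past 2-fold higher. With the Esg>yki library of day 8 in place of day 14 the count was 0. The control of that ratio was still the library of day 14, since control has no library of day 8. The ages thus differ, and no share of all genes is given for this pair. At day 2 the count was 0 in both directions, where 3.68% of all genes were higher and 0.951% lower, with a median of -0.01 over the 10 and 0.02 over all genes. At day 38 it was again 0 in both directions, where 3.79% of all genes were higher and 1.53% lower, and the medians were 0.04 and -0.06.

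Over time, 5 genes rose between day 2 and day 14 in Esg>yki thoraces (sty, aop, Pvf2, Pvf1 and rl) and 0 fell, where 12.8% of all genes were past 2-fold higher and 19.0% lower. The median was 0.88 over the 10 and -0.02 over all genes. In control thoraces 2 rose (sty and aop) and 0 fell, where 15.3% of all genes were higher and 4.83% lower, with medians of 0.59 and 0.34. The Esg>yki count was 2 with day 8 in place of day 14 (sty and aop), where 13.2% of all genes were higher. On nuclear protein-coding scaling the Esg>yki count was 7, with Pvr and pnt added (log2 ratio 1.14 each). The median over all genes was then 0.40. The control count was 0 with TMM scaling, where 7.82% of all genes were higher. With nuclear protein-coding scaling it was 4, where 18.0% of all genes were.

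Between day 14 and day 38 in Esg>yki thoraces 1 gene rose (Egfr) and 0 fell, where 22.0% of all genes were past 2-fold higher and 5.73% lower. The median was 0.20 over the 10 and 0.35 over all genes. In control thoraces 1 rose (aop) and 0 fell, where 7.79% of all genes were higher and 8.95% lower, with medians of 0.42 and 0.07. On TMM, median of ratios and nuclear protein-coding scaling sty was past 2-fold lower in Esg>yki between these days, and on the last of these Egfr was no longer past 2-fold higher. Of all genes 12.8, 11.3 and 14.7% were lower on these scalings.

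**Figure D3:**
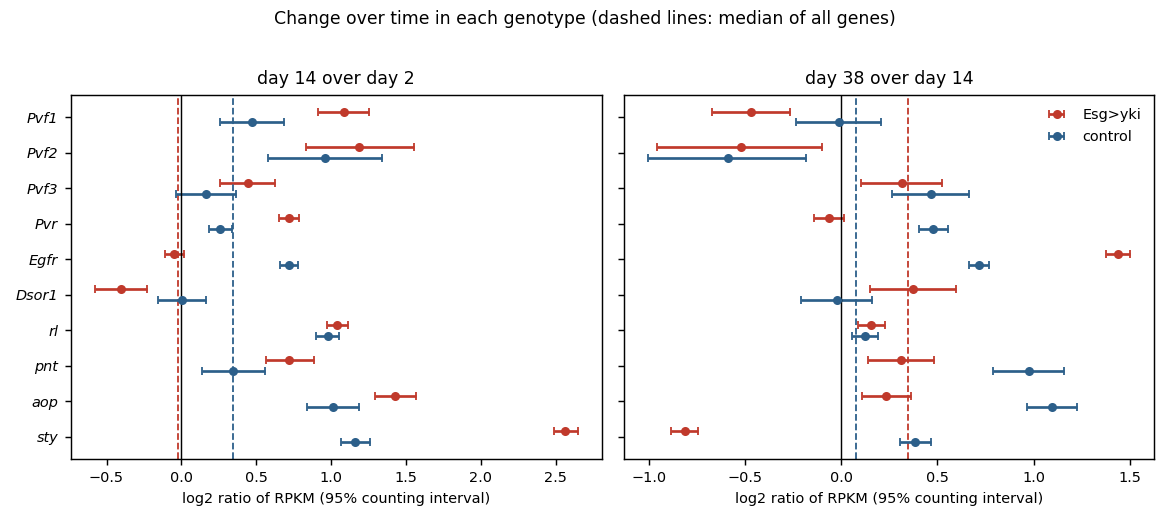
Log2 ratio of RPKM (x axis) for each gene (y axis), day 14 over day 2 on the left and day 38 over day 14 on the right, with Esg>yki in red above control in blue. Bars are 95% counting intervals and dashed lines the medians of all genes. For sty the Esg>yki change lay above the control change on the left (2.57 and 1.16) and below it on the right (-0.81 and 0.38).

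Among the 7 Esg>yki days the highest level fell at day 20 for 5 members (Pvr, Pvf1, Pvf3, aop and pnt), at day 14 for 2 (Pvf2 and sty), at day 38 for 2 (Egfr and rl) and at day 32 for 1 (Dsor1) by library total. Even so, Pvf1 at days 20 and 14 was within counting error (log2 ratio 0.15, -0.002 to 0.30). The Dsor1 interval at day 32 (11.5 to 13.1 RPKM) overlapped those of day 8 (10.7 to 12.7 RPKM) and day 20 (10.5 to 12.6 RPKM). On TMM and median of ratios scaling it fell at day 14 for 5 (Pvf1, Pvf2, sty, aop and rl), at day 20 for 3 (Pvr, Pvf3 and pnt), at day 38 for Egfr and at day 2 for Dsor1. On TMM scaling the log2 ratio of day 20 over day 14 was 0.08 for Pvf3, 0.00 for pnt and -0.01 for aop, within counting error. Pvr and Pvf3 followed each other across the 10 libraries (r = 0.94), while sty and Dsor1 had the lowest correlation of any pair (r = -0.44). Of the genes with a course most like that of sty over the 10 libraries, ranked by Pearson r of log2 levels among 8286 genes, the first was sr (stripe, a zinc finger transcription factor of tendon cells, r = 0.99), followed by His3.3B and chn (r = 0.98 each). For Pvr they were ex (expanded, an upstream regulator of the Hippo pathway), Rel (Relish, an NF-kappaB factor of immunity) and Mcr, each with r = 0.98. For Egfr they were fus, ACC (the enzyme that commits acetyl-CoA to fatty acid synthesis) and CG42788, each with r = 0.98. For aop they were hdc (r = 0.996), Sema1a and aPKC (r = 0.99 each), and for pnt ct, kmr and CG42540 (r = 0.99, 0.98 and 0.98). For rl they were MFS17, cta and Pi3K21B (r = 0.99 each), for Pvf3 Tie, a receptor tyrosine kinase gene, with wds and CG10337 (r = 0.98 each). Pvf1 was followed by CG32066, cib and Gagr (r = 0.96 each), Dsor1 by Uvrag, Fcp1 and CG15743 (r = 0.96, 0.96 and 0.95), and Pvf2 by Arf102F, CG4502 and CG4287 (r = 0.95, 0.95 and 0.94).

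Both sty and pnt also belong to a list of 8 genes known as transcriptional targets of Egfr and MAPK signalling in fly development (sty, aos, rho, kek1, Mkp3, edl, pnt and Ets21C), several of which feed back on the pathway. Of these 8, 7 passed the 2 RPKM minimum at day 14. All 7 had log2 ratios above 0 in Esg>yki over control, where 27.7% of all genes did by library total. Of the 7, 3 were past 2-fold higher and 0 lower, where 2.99% of all genes were higher and 17.0% lower. Their median was 0.88 by library total, against -0.36 over all genes, and 1.22 on TMM scaling, against -0.02. The count past 2-fold higher was 6 on TMM scaling, where 6.29% of all genes were. It was 0 with the Esg>yki library of day 8 over the control of day 14, a pair of unlike ages.

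The membrane protease gene rho, whose product releases active Egfr ligand, had 19.5, 26.8, 55.0, 41.7, 27.5, 26.7 and 23.9 RPKM in Esg>yki thoraces at days 2, 8, 14, 20, 26, 32 and 38, against 21.4, 25.4 and 25.2 RPKM in control thoraces at days 2, 14 and 38. Its day 14 and day 20 Esg>yki libraries stood above all others, and at day 14 rho was higher in Esg>yki (log2 ratio 1.11, 1.04 to 1.18). Between day 14 and day 38 rho fell in Esg>yki (log2 ratio -1.20), against -0.01 in control.

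Mkp3, a phosphatase that switches off ERK, had 5.21, 9.69, 12.1, 11.6, 8.54, 7.84 and 8.28 RPKM in Esg>yki thoraces at days 2, 8, 14, 20, 26, 32 and 38, against 5.11, 5.13 and 8.20 RPKM in control thoraces at days 2, 14 and 38. Mkp3 rose between day 2 and day 14 in Esg>yki (log2 ratio 1.21), against a log2 ratio of 0.00 in control, or -0.35 on TMM scaling. At day 14 it was higher in Esg>yki (log2 ratio 1.24, 1.11 to 1.36).

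The gene kek1, for a transmembrane inhibitor of Egfr, had a day 14 log2 ratio of 0.84 (0.71 to 0.97), with 7.59 RPKM in Esg>yki and 4.23 RPKM in control. The gene edl, whose product acts on the ETS factors, had a day 14 log2 ratio of 0.88 (0.70 to 1.06), with 15.9 RPKM in Esg>yki and 8.66 RPKM in control. The gene aos, for a secreted inhibitor that binds the Egfr ligand, stood apart from them with 15.9 RPKM in Esg>yki and 15.2 RPKM in control (log2 ratio 0.06, -0.05 to 0.17). Ets21C, an ETS factor gene, stayed under the minimum with 0.568 RPKM in Esg>yki and 0.256 RPKM in control, and 28.3% of its exonic bases overlap nAChRbeta3 on the opposite strand.

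**Figure D4:**
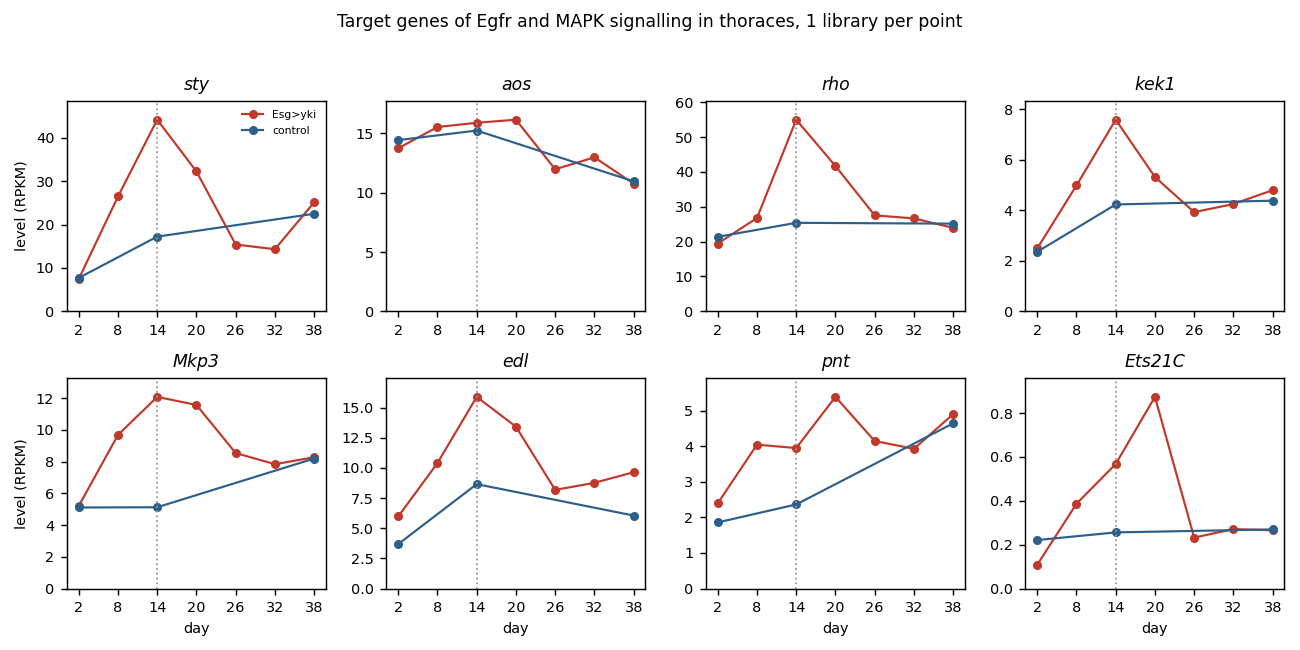
Level in RPKM (y axes, each from 0) of 8 targets of Egfr and MAPK signalling against day (x axis) in Esg>yki (red) and control (blue) thoraces, 1 library per point, with day 14 dotted. The genes sty, rho, kek1, Mkp3 and edl had their highest RPKM of the 10 libraries in the Esg>yki library of day 14, and aos, pnt and Ets21C at day 20.

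Over time 5 of the 7 tested genes rose in Esg>yki between day 2 and day 14 (sty, kek1, rho, edl and Mkp3). Of all genes 12.8% rose. The median log2 ratio of the 7 was 1.41 against -0.02 over all genes. On nuclear protein-coding scaling the count was 6, with pnt added. In control 2 rose (sty and edl), where 15.3% of all genes rose, with a median of 0.35 against 0.34. On TMM scaling 0 rose in control, where 7.82% of all genes did. Between day 14 and day 38 in Esg>yki 6 of the 7 had log2 ratios below 0, with a median of -0.66 against 0.35 over all genes, and pnt was the exception with 0.31, or -0.10 on TMM scaling. In control 3 of the 7 were below 0, with a median of 0.05 against 0.07 over all genes. The Esg>yki count past 2-fold lower was 1 by library total (rho), where 5.73% of all genes were, and 4 on TMM scaling (sty, rho, kek1 and edl), where 12.8% were.

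A wider list held 58 other ligands, ligand-processing proteins, receptors, adaptors, inhibitors and nuclear effectors of receptor tyrosine kinase and Ras signalling. It includes aos, rho, kek1, Mkp3, edl and Ets21C from the list of targets above, so these genes are counted in both lists. Of 48 tested at day 14, 4 were past 2-fold higher and 3 lower, where 2.99% of all genes were higher and 17.0% lower. The median log2 ratio was 0.07 against -0.36 over all genes. On TMM scaling 8 were higher (spi, jeb, rho, InR, kek1, Mkp3, edl and cic) and 1 lower (btl) of 49 tested, where 6.29% of all genes were higher and 8.16% lower. InR, the insulin receptor, had 29.7 RPKM in Esg>yki and 9.45 RPKM in control at day 14 (log2 ratio 1.65), and between day 14 and day 38 it fell in Esg>yki (log2 ratio -1.60). The gene jeb, for the ligand of the receptor Alk, had 4.20 RPKM in Esg>yki and 1.11 RPKM in control (log2 ratio 1.92). The other 2 that were higher by library total were rho and Mkp3.

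The 3 lower genes were the FGF receptor btl, the Egfr ligand grk and the receptor sev. The tracheal gene btl had 1.30 RPKM in Esg>yki and 3.98 RPKM in control at day 14 (log2 ratio -1.61), and it rose by day 38 in Esg>yki (log2 ratio 2.20). Tracheal markers did not share one direction at day 14. Of 3 tested, 1 was past 2-fold lower (btl) and 1 higher (Gasp, 17.3 RPKM in Esg>yki and 6.78 RPKM in control). Of all genes 2.99% were higher and 17.0% lower. The ligand gene grk had 39.7 RPKM in Esg>yki and 89.3 RPKM in control (log2 ratio -1.17), and 12.3% of its exonic bases overlap Akap200 on the opposite strand. The receptor gene sev had 4.90 RPKM in Esg>yki and 10.0 RPKM in control (log2 ratio -1.03). On TMM scaling the log2 ratio was -1.27 for btl, -0.83 for grk and -0.69 for sev.

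Of 18 adaptors and core components, such as drk, Sos, Ras85D and Raf, 0 were past 2-fold in either direction at day 14, where 2.99% of all genes were higher and 17.0% lower, with a median log2 ratio of 0.02 against -0.36 over all genes. With nuclear protein-coding scaling 2 were higher, where 8.89% of all genes were. Of 12 inhibitors 1 was higher (Mkp3) and 9 were above 0, where 27.7% of all genes were by library total, with a median of 0.37. On TMM scaling the inhibitor genes kek1, edl and cic were past 2-fold higher as well, where 6.29% of all genes were. Between day 2 and day 14 in Esg>yki 16 of 48 tested genes of the wider list rose and 2 fell, where 12.8% of all genes rose and 19.0% fell. In control 6 of 47 rose and 0 fell, where 15.3% of all genes rose and 4.83% fell. On TMM scaling 2 rose in control (grk and Crk), where 7.82% of all genes did. InR (log2 ratio 2.75), jeb (2.26) and grk (1.62) rose most in Esg>yki, and btl (-1.63) and sev (-1.11) fell. In control grk (2.65), Crk (1.83) and edl (1.23) rose most. Between day 14 and day 38 in Esg>yki 3 of 49 rose (btl, sev and grk) and 2 fell (InR and rho), where 22.0% of all genes rose and 5.73% fell. On TMM scaling 2 of 49 rose and 8 fell, where 12.1% of all genes rose and 12.8% fell. In control 3 rose (sev, jeb and cic) and Crk fell, where 7.79% of all genes rose and 8.95% fell, and on TMM scaling 1 rose and 3 fell.

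**Figure D5:**
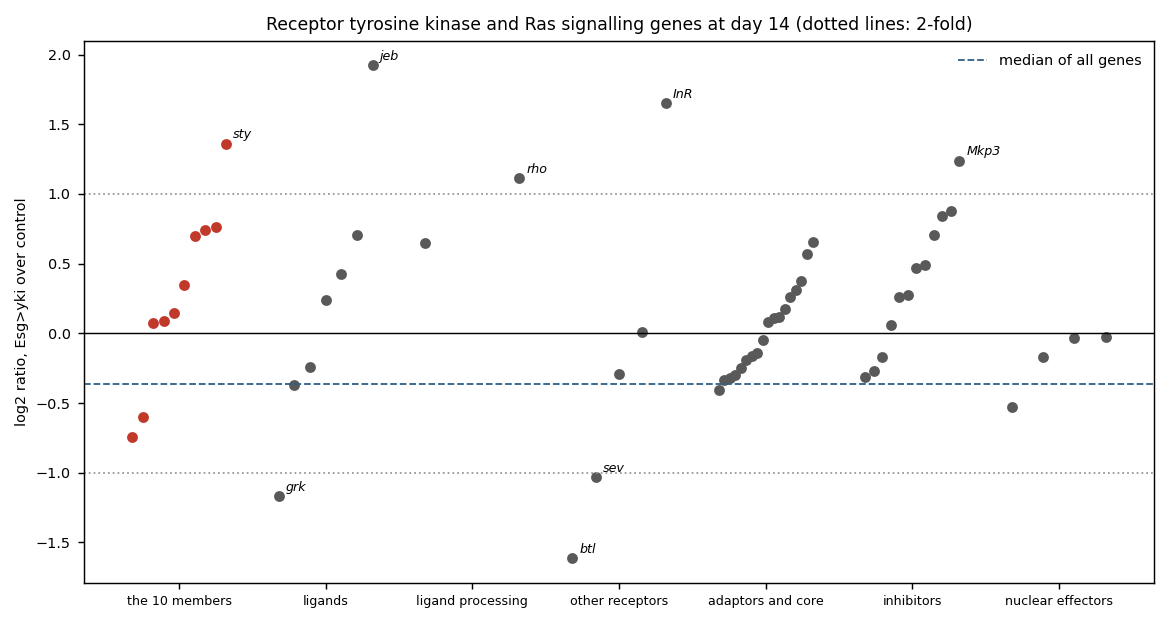
Log2 ratio of Esg>yki over control thoraces at day 14 (y axis) for the 10 genes (red) and the tested genes of the wider list by class (grey, x axis), ordered by value within a class. Dotted lines are 2-fold and the dashed line the median of all genes. Genes past 2-fold are named, with sty at 1.36, and the 18 adaptors and core components all lie within 2-fold.

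Markers of several cell types moved with the day 14 values, which are given here by library total only. That total held 46.9% mitochondrial reads in the Esg>yki library of day 14, so other scalings can change the direction of small differences. By the same 2-fold rule 2.99% of all genes were higher and 17.0% lower at day 14. All 6 neuron markers had log2 ratios above 0 in Esg>yki over control, with 0 past 2-fold, a median of 0.60 and a summed level of 108.6 RPKM against 77.2 RPKM. Summed over the 7 Esg>yki libraries their range was 62.5 to 108.6 RPKM, against 63.2 to 100.9 RPKM in the 3 control libraries. Flight muscle markers were past 2-fold lower for 3 of 8, with a summed level of 1803 RPKM in Esg>yki and 6014 RPKM in control. Fat body markers were lower for 5 of 5 tested, with sums of 795 RPKM and 2453 RPKM. Hemocytes, the blood cells in which Pvr is known to act, had 1 of 8 tested markers past 2-fold higher and sums of 134 RPKM in Esg>yki and 146 RPKM in control, with gcm2 at 0 in at least 1 of these libraries. The median log2 ratio of the tested hemocyte markers was -0.18, against -0.36 over all genes. Midgut markers summed to 79.6 RPKM in the Esg>yki library of day 2, against 7.38 to 20.3 RPKM in the other 6 Esg>yki libraries and 11.2 to 14.9 RPKM in control. Their part in the values of the 10 genes was not tested.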

How the data were processed

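The data are 10 RNA-seq libraries of male thoraces, 7 of Esg>yki and 3 of control flies, with groups, days and temperatures taken from the sample labels. The authors depleted rRNA, sequenced each library as 4 pools and mapped them by STAR on the genome of FlyBase, according to the paper's methods; the build named in the submitters' processing notes is one of another organism and was not used. The values the authors deposited are unscaled estimated counts of each gene, all of which are multiples of 0.25, as a mean over 4 pools would be. They were multiplied by 4 and taken as reads. How reads were counted, whether strand was used and what was done with reads of several places are not given in the sources used here. 1 row that names no gene was left out.

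RPKM was computed from the library's total of reads on genes, 14615109 to 38208954 per library, and from merged exon lengths in Ensembl 115, which annotates dm6. A length was found for 99.7% of identifiers, and the other 56 genes, with 0.0760% of the reads, have no RPKM. Genes were compared by the log2 ratio of 2 libraries, with 95% exact Clopper-Pearson intervals on their reads (Python 3.11.15, scipy 1.17.1) and with the summed error of both ratios for a difference of changes. With 1 library per condition no test across replicates was made. Calls need a log2 ratio over 1 and at least 2 RPKM in the larger library. Likeness of courses used log2(RPKM + 0.5). Alternatives were TMM factors (edgeR 4.0.16), median of ratios (DESeq2 1.42.0), the total of nuclear protein-coding genes, a pseudocount of 1 RPKM, no minimum, and neighbouring days. The counting rule was tested on simulated reads that carried counting error only. That check does not cover the spread between flies or library preparations, or a shift in the mitochondrial share. The 10 genes and the gene lists were chosen with earlier results of these data known. All 10 are given in every library; genes of the wider list are named when past 2-fold (up to 3 in each direction, largest ratio first) or when they are ligands or feedback targets of the pathway. For Gap1 the files hold the symbol RasGAP1, so 58 of 59 listed symbols were counted.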

Additional observations from a re-analysis of the deposited data

Results flagged for a closer look

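The feedback inhibitor gene sty moved in opposite directions after the return to 18 °C. Its log2 ratio of day 38 over day 14 was -0.8141 in Esg>yki thoraces (95% counting interval -0.89 to -0.74) and 0.3846 in control thoraces (0.30 to 0.46). With TMM scaling the values were -1.22 and 0.28. Each genotype has 1 library per day, so the difference was not tested against the spread between libraries. Its day 38 level, 25.1 RPKM in Esg>yki and 22.5 RPKM in control, lay above the Esg>yki levels of days 26 and 32 of 15.4 and 14.3 RPKM.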

How the results depend on the processing

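Of the 10 genes, the count past 2-fold higher in Esg>yki than in control at day 14 was 1, and it was 4 with TMM, 4 with median of ratios, 4 with nuclear protein-coding scaling and 0 with the Esg>yki library of day 8, an alternative chosen after seeing the data. For the 8 target genes, whose alternatives were all added after seeing the data, that count was 3, and it was 6 with each of the 3 other scalings and 0 with day 8. Of all genes 2.99% were past it by library total, and 6.29, 5.58 and 8.89% on TMM, median of ratios and nuclear protein-coding scaling. The day 8 alternative sets Esg>yki of day 8 against control of day 14, since control has no library of day 8. No share of all genes is given for that pair. Between day 2 and day 14 in Esg>yki the count of 5 members became 7 with nuclear protein-coding scaling. It became 2 with a pseudocount of 1 RPKM and 2 with day 8 in place of day 14. The count of 5 targets became 6 with nuclear protein-coding scaling and 2 with day 8. In control the count of 2 members became 0 with TMM and median of ratios, 4 with nuclear protein-coding scaling and 1 with the pseudocount. Of all genes 7.82, 7.88 and 18.0% were higher in control on these scalings, against 15.3% by library total. Between day 14 and day 38 in Esg>yki the 1 higher member became 0 with nuclear protein-coding scaling, and the 0 lower became 1 with each of the 3 other scalings and 1 with day 32 in place of day 38. In control the 1 higher became 0 with TMM and 0 with the pseudocount. The other scalings differ from the library total by construction in the weight given to mitochondrial and other abundant reads, and beyond that the cause was not tested.

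Of the 70 ratios of the 10 genes in the 7 comparisons, 32 moved beyond their counting interval with TMM, 31 with median of ratios, 38 with nuclear protein-coding scaling and 9 with the pseudocount. The sign differed between scalings for 16 of the 70, none of them past 2-fold. No paired analysis was possible because each condition is 1 library. Pvf2, with 62 to 192 reads, had the widest intervals of the 10. The other scalings of peak days, of steps between neighbouring days, of differences of changes and of the wider list were added after seeing the data.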
